A study of Mus musculus with 531 samples.

Results

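The expression of 9 genes of the primitive streak and nascent mesoderm was followed in single cells of mouse embryos, *T* (also called Brachyury), *Mixl1*, *Mesp1*, *Eomes*, *Lhx1*, *Evx1*, *Snai1*, *Aplnr* and *Cdx4*. They were taken by name from a table of reads on 22084 genes, which held all 9, and were read by stage, embryo and class of cells to ask which of them were present before *T* and which were also present in endoderm. The study had picked single cells by hand from C57Bl/6Babr embryos at embryonic day 4.5 (E4.5, 91 cells from 5 embryos by the labels), E5.5 (80 cells from 1 embryo) and E6.5 (93 cells with RNA from 2 embryos), and had sequenced the RNA and the bisulfite-treated DNA of each cell. No treatment was given, and no stage had mutant embryos. Outer trophectoderm had been taken off the E4.5 embryos, endoderm and extraembryonic ectoderm had been pulled away from the epiblast at E5.5, and extraembryonic tissue had been removed by hand at E6.5. Only the RNA is used here, in the 217 of 264 cells that held at least 50000 reads and 2000 genes with a read, of which 75 were from E4.5, 59 from E5.5 and 83 from E6.5.

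During gastrulation, epiblast cells at the posterior side of the embryo lose their epithelial shape, pass through the primitive streak and become mesoderm or definitive endoderm. NODAL, WNT3 and BMP4 signals start this process and *Eomes*, *Mixl1* and *T* are among the first transcription factor genes to answer them. *Mesp1* marks the earliest mesoderm, including the cells that later form the heart, *Snai1* represses E-cadherin and drives the change to migrating cells, *Evx1* and *Cdx4* belong to posterior streak and tail, and *Aplnr* encodes the receptor for the apelin peptides. *Lhx1* and *Eomes* are also known from the visceral endoderm, the layer around the epiblast, where they help to set up its anterior pole.

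All positions are on the mouse genome build GRCm38 and span whole annotated genes. *T* spans chr17:8434423-8442496 on the plus strand and *Mesp1* chr7:79792241-79793788 on the minus strand, *Eomes* chr9:118478212-118486132 on the plus strand and *Lhx1* chr11:84518284-84525535 on the minus strand. *Mixl1* lies at chr1:180693043-180697034 (minus), *Evx1* at chr6:52313498-52318378 (plus), *Snai1* at chr2:167538195-167542814 (plus), *Aplnr* at chr2:85136225-85139923 (plus) and *Cdx4* at chrX:103321398-103330592 (plus). Exons of antisense genes, which are not in the count table, overlapped 2.84% of the exon bases of *Eomes* and 2.54% of those of *Evx1*, and no annotated exon overlapped the other 7. The RefSeq promoter table for GRCm38.p6 held 7 of the 9 genes, without *Mixl1* and *Aplnr*. The 250 bases before the RefSeq start sites of *T*, which was almost absent before E6.5, and of *Eomes* and *Lhx1*, which were read in endoderm as well, are given from 5′ to 3′ in the direction of the gene.
T, chr17:8434173-8434422, plus strand: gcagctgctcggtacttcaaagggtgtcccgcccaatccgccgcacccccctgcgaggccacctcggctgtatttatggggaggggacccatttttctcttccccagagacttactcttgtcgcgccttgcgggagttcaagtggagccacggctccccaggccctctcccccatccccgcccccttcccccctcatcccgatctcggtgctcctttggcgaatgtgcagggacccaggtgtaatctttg
Eomes, chr9:118477939-118478188, plus strand: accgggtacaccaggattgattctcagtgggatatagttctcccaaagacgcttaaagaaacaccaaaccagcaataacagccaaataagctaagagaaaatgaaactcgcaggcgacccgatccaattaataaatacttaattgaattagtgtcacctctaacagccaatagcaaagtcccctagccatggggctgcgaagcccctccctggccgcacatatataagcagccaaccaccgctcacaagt
Lhx1, chr11:84525535-84525784, minus strand: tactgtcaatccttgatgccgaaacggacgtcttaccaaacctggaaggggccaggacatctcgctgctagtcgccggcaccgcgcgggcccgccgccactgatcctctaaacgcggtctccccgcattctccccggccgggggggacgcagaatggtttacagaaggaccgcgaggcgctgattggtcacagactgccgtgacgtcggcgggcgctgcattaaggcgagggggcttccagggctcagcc
The site CTTTGAT of the TCF/LEF factors that act for WNT, present on either strand in 3.21% of the 32851 promoters of the table, had no match in these 3 windows and 1 in that of *Mesp1*, 31 bases before its RefSeq start. That start lies 198 bases inside the annotated gene, so the match is 167 bases after the annotated start, and this window is not printed. The T-box site GGTGTGA, held by 3.33% of all promoters, and the FOXH1 site AATCCAC, held by 2.1%, had no match in the windows of the 7 genes. These are matches of letters and not measured sites.

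Cells were put in 2 classes by marker lists that hold none of the 9 genes, endoderm-like where the mean level of 12 endoderm markers was above that of 8 epiblast markers, and non-endoderm otherwise. This left 51 endoderm-like and 24 non-endoderm cells at E4.5, with both classes in every embryo, and 8 and 51 at E5.5. The difference between the lists left no E5.5 cell between -2.51 and 5.22 on the log2 scale, but a narrower gap at E4.5, from -1.45 to 0.36, with 1 cell within 1 unit of the limit. At E6.5 it ran without a gap from -2.73 to 6.14, so the 60 endoderm-like and 23 non-endoderm cells of this stage are ranges of a score and not cell types, and 37 of the 83 lay within 1 unit of the limit. The E6.5 libraries also stood apart in other ways. At least 100 CPM (counts scaled to the total reads of a cell) of both *Pou5f1*, an epiblast gene, and *Apoa1*, a gene of visceral endoderm, were present in 67 of 83 E6.5 cells and in 0 of 134 cells of the earlier stages, though *Apoa1* was low in both classes at E4.5. The 12 endoderm markers together took 147 CPM in the lowest E6.5 cell and at most 118 CPM in the non-endoderm cells of E5.5. A kept cell of E6.5 had a median of 9304 genes with a read, against 6985 for E4.5 and 5242 for E5.5, and after thinning each cell to 50000 reads the medians were 6409, 5176 and 4137. By embryo, the median depth was lowest in E4.5 embryo 1, at 398206 reads per cell, and highest in the E5.5 embryo, at 1511811. The part of these differences in the results at E6.5 was not tested, and each test of the 9 genes between stages or classes that uses E6.5 is given with and without the cells that held both markers.

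**Figure D1:**
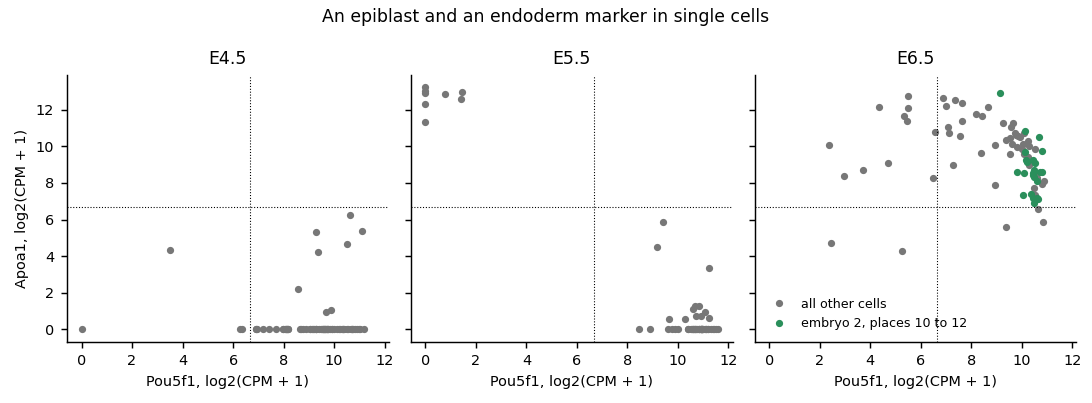
Each point is a kept cell, with *Pou5f1* on the x axis and *Apoa1* on the y axis, both in log2(CPM + 1), and dotted lines at 100 CPM. At E4.5 and E5.5 no cell was above both lines, whereas 67 of 83 cells were at E6.5, among them all 24 cells of embryo 2 at places 10 to 12 of the cell numbers.

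Levels differed widely between the genes and the stages. A read of *Eomes* was found in 54 of 75 cells at E4.5, 23 of 59 at E5.5 and 81 of 83 at E6.5, whereas *Mesp1* was read in 0 of 134 cells of the earlier stages, which allows a share of up to 2.24%, and in 35 of 83 at E6.5. Between these extremes, *Lhx1* was read in 22, 7 and 72 cells of the 3 stages, *Snai1* in 24, 3 and 51, *Mixl1* in 5, 5 and 70, *Evx1* in 5, 2 and 50, *Aplnr* in 3, 0 and 25 and *T* in 1, 0 and 31. *Cdx4* had another course, with reads in 0, 5 and 1 cells. The typical E4.5 cell held reads of 2 of the genes, the typical non-endoderm cell of E5.5 of none, and 30 of these 51 cells of none at all. Shares of cells with a read depend on depth and cover counting only, and reads without molecular identifiers are not independent molecules.

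**Figure D2:**
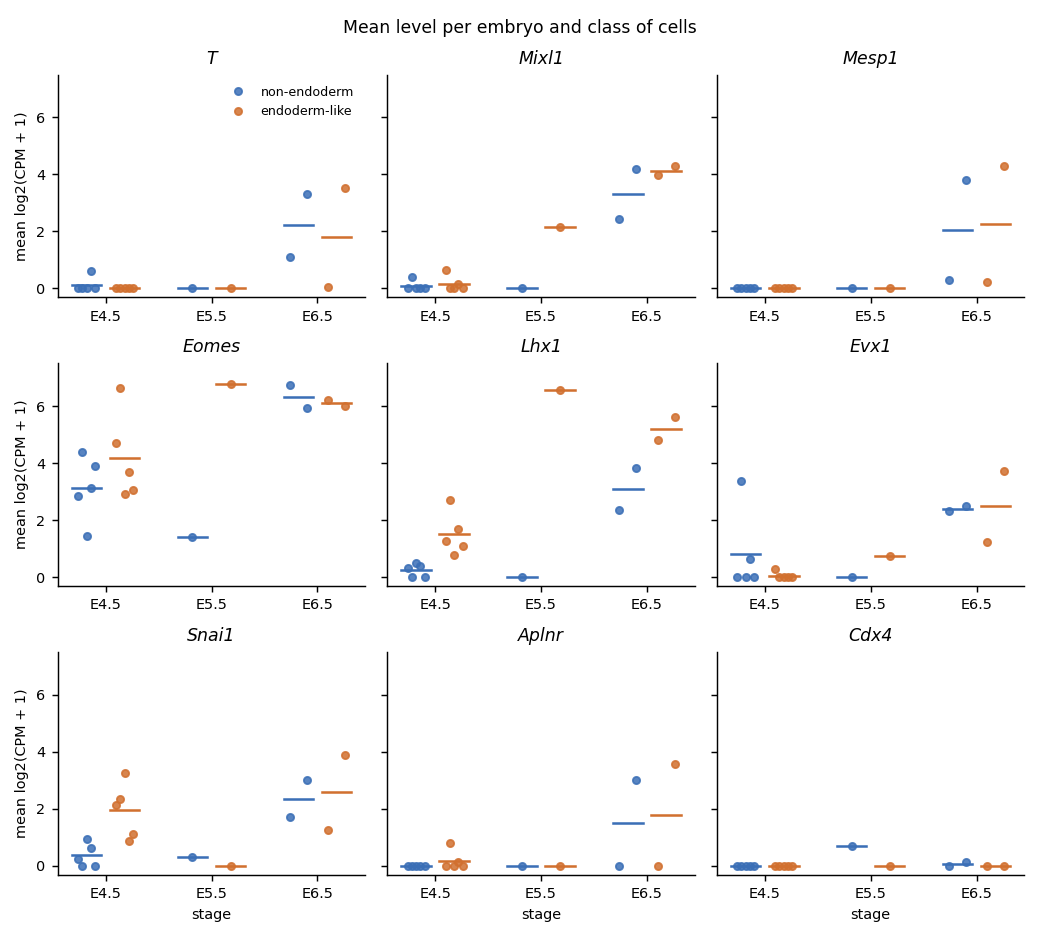
Mean log2(CPM + 1) over the cells of each class, 1 point per embryo (5 at E4.5, 1 at E5.5, 2 at E6.5), with non-endoderm cells in blue, endoderm-like cells in orange and a bar at the mean over embryos. *Eomes* was above 1 in every embryo and class, whereas *T*, *Mesp1* and *Aplnr* were high in only 1 of the E6.5 embryos.

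*Eomes*, a T-box factor gene needed for both trophoblast and mesoderm, was the member read in the most cells of both classes at E4.5. Summed over the non-endoderm cells of each E4.5 embryo it took 29.7, 39.4, 13.4, 38.4 and 45.9 CPM in embryos 1 to 5, and over the endoderm-like cells 75.4, 113, 20.7, 30.6 and 16 CPM. The ranges overlapped, endoderm-like cells were higher in 3 of 5 embryos, and the difference was within the error of the fit, 0.35 ± 0.51 on the log2 scale (SE, adjusted p = 0.748, edgeR quasi-likelihood test over embryos with the embryo as a block, Benjamini-Hochberg over all genes). At E5.5 all 8 endoderm-like cells held it, from 14.1 to 420 CPM, and 15 of 51 non-endoderm cells did. The summed level was 178 CPM in the endoderm-like and 14.4 CPM in the non-endoderm cells, a 12.4-fold difference with an adjusted p of 0.022. The E5.5 class comparison rests on 1 embryo, which the fit assumes to vary like the others, and the call was lost when either E6.5 embryo was left out of it, with adjusted p-values of 0.0658 (without embryo 1) and 0.0509 (without embryo 2), and without the embryo as a block (0.100).

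*Lhx1*, a LIM homeobox gene, was higher in endoderm-like cells at both early stages. In the non-endoderm cells of E4.5 embryos 1 to 5 it stood at 0.425, 0, 0.704, 0.601 and 0 CPM, and in the endoderm-like cells at 4.82, 16.6, 2.59, 6.87 and 4.19 CPM. The groups did not overlap, and the rise of 4.03 ± 0.88 on the log2 scale passed the test (adjusted p = 1.35e-04), with endoderm-like cells higher in 5 of 5 embryos. At E5.5, 7 of 8 endoderm-like cells held from 34.3 to 575 CPM and 0 of 51 non-endoderm cells a read, which allows a share of up to 5.88%. The summed level of 234 CPM was at least 6188-fold higher than 3 reads over the non-endoderm cells would give (adjusted p = 4.78e-07). Neither call was lost under any alternative run for it.

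*Snai1*, the zinc finger repressor of E-cadherin, was also higher in the endoderm-like cells at E4.5. Its summed level in embryos 1 to 5 was 0.425, 0, 5.17, 1.95 and 0 CPM in non-endoderm and 29.5, 8.59, 32.1, 4.08 and 3.28 CPM in endoderm-like cells. The ranges overlapped but the endoderm-like cells were higher in 5 of 5 embryos, with a difference of 4.11 ± 1.41 on the log2 scale (adjusted p = 0.0333). This call was close to the limit and was lost without any of 7 of the 8 embryos of the fit, with adjusted p-values from 0.0507 to 0.177. It had no counterpart at E5.5, where *Snai1* was read in 3 of 51 non-endoderm and 0 of 8 endoderm-like cells (adjusted p = 0.157 in edgeR, though DESeq2 called it lower). Together 2 of the 9 genes were higher and none lower in endoderm-like cells at E4.5, where 7.18% of all 14966 genes were called higher and 4.74% lower.

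*Mixl1*, a homeobox gene of the streak, was read at E4.5 in 1 of 24 non-endoderm and 4 of 51 endoderm-like cells, at no more than 10.5 CPM in any cell. At E5.5 its reads were found in 5 of 8 endoderm-like cells, at 138, 88, 2.57, 1.13 and 0.715 CPM, and in 0 of the 51 other cells. The summed 27 CPM was at least 713-fold above 3 reads over the non-endoderm cells (adjusted p = 0.0135). This call was lost without E6.5 embryo 1 (adjusted p = 0.085), without E6.5 embryo 2 (0.166), under the stricter cell filter (0.173) and without the embryo as a block (0.0643). It was also lost without the E6.5 cells at places 10 to 12 (0.0538) or with both markers (0.0529). With *Lhx1* and *Eomes* it made 3 of 9 genes higher in the endoderm-like cells of E5.5, against 1.97% of all genes higher and 5.62% lower. All 8 cells stood at the last place in their rows of 12 cell numbers, and the labels do not say what these numbers mean.

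**Figure D3:**
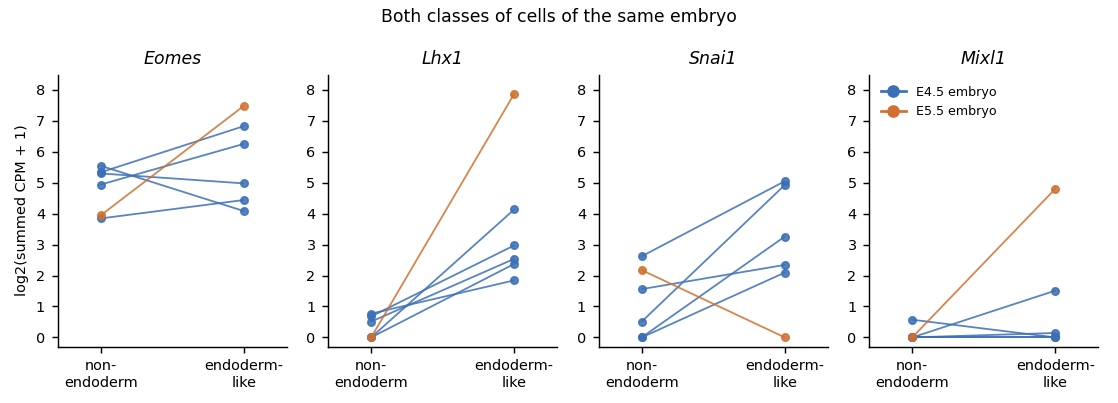
Level of 4 genes summed over the non-endoderm (left) and endoderm-like (right) cells of the same embryo, in log2(CPM + 1), with lines joining the classes of an embryo, blue for the 5 E4.5 embryos and orange for the E5.5 embryo. All 6 lines rose for *Lhx1*, those of *Eomes* at E4.5 went both ways, and *Snai1* was higher in endoderm-like cells at E4.5 and at 0 in those of E5.5.

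The other 5 genes were rare before E6.5. *Evx1*, an even-skipped homeobox gene, was read in 4 of 24 non-endoderm cells at E4.5, 3 of them among the 4 cells of embryo 2 (17 CPM), and in 1 of 51 endoderm-like cells. At E5.5 it was read in 1 of 8 endoderm-like cells, at 66.1 CPM, and in 1 of 51 others, and the summed 4.92 against 0.0126 CPM, from 77 reads against 1, missed the threshold (adjusted p = 0.220). The 1 early cell with *T* was a non-endoderm cell of E4.5 embryo 4 with 9 reads (11.1 CPM), which of the other 8 genes held only *Eomes*. *Aplnr* had reads in 3 endoderm-like cells of E4.5, at no more than 8.33 CPM. *Cdx4*, a caudal-type homeobox gene, was present in 5 non-endoderm cells of E5.5 at 582, 435, 130, 73.9 and 30 CPM and in none of the 8 endoderm-like cells. All 5 stood at places 1 to 3 in the rows of cell numbers, 3 of them at place 3, whose cells had the lowest median of genes with a read among the places of that embryo (3192, and 2537 after thinning), and the part of this in the result was not tested. No other member but *Eomes* was read in as many non-endoderm cells of that embryo. The 28.4 CPM summed over these cells was at least 189-fold above 3 reads over the E4.5 non-endoderm cells, but with 1 embryo the difference missed the threshold (adjusted p = 0.190). None of the 9 genes was called between E5.5 and E4.5, where 2 had an unadjusted p under 0.05, DESeq2 called 0 and 0.113% of all 13234 genes were called higher and 0.174% lower.

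Between E4.5 and E6.5 the non-endoderm cells were compared over 5 and 2 embryos. Of the 18 non-endoderm cells of E6.5 embryo 2, 8 stood at places 10 to 12 of the cell numbers, described below. The other 16 cells at these places were in the endoderm-like range. In the non-endoderm cells *T* took 0, 0, 0, 1.35 and 0 CPM in the E4.5 embryos and 2.41 and 55.6 CPM in E6.5 embryos 1 and 2. *Mesp1* was at 0 in all E4.5 embryos and at 0.134 and 164 CPM at E6.5, and *Aplnr* at 0 in all E4.5 embryos, at 0 in E6.5 embryo 1 and at 59.6 CPM in embryo 2. For these 3 genes, then, E6.5 embryo 2 was far above embryo 1. *Mixl1* rose from 0, 0.487, 0, 0 and 0 CPM to 5.63 and 64.1 CPM, and *Lhx1* from the levels given above to 4.69 and 72.2 CPM, with no overlap between the stages. *Eomes* was at 136 and 86.6 CPM at E6.5, above the highest E4.5 embryo. Of 10 trophoblast markers, 0 were read in at least 50% of the non-endoderm cells of E4.5 and 2 in those of E6.5, with *Elf5* at 0.651 and 10.3 CPM and *Cdx2* at 0 and 6.69 CPM. Their sum ran from 0 to 190 CPM per cell at E4.5 and from 0 to 403 CPM at E6.5, where *Elf5* was read in 32 and *Cdx2* in 29 of the 36 cells of embryo 1, and the part of such cells in the level of *Eomes* was not tested.

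By the edgeR test 4 of the 9 genes were higher at E6.5, *Mixl1* (log2 change 8.92 ± 1.85, adjusted p = 0.00909), *Lhx1* (6.61 ± 1.53, adjusted p = 0.0189), *Mesp1* (at least 625-fold, adjusted p = 0.00725) and *Aplnr* (at least 227-fold, adjusted p = 0.0396), both bounds set against 3 reads over the E4.5 cells. The calls of *Mesp1* and *Aplnr* rest on E6.5 embryo 2, as embryo 1 held 0.134 CPM of *Mesp1* and 0 of *Aplnr*. Among all genes 3.2% were called higher and 1.82% lower. *T*, at 6.33 ± 1.86 (adjusted p = 0.0617), and *Eomes*, at 2.11 ± 0.65 (adjusted p = 0.0726), missed the threshold, as did *Evx1*, *Snai1* and *Cdx4*. No gene was lower. Without the cells of E6.5 embryo 2 at places 10 to 12, described below, 0 of 9 genes were called, with log2 changes of 7.13 for *Mixl1* (adjusted p = 0.105) and 3.57 for *Lhx1* (adjusted p = 0.421), and with 2.73% of all genes higher and 1.85% lower. Without the cells that held both *Pou5f1* and *Apoa1*, all 5 non-endoderm cells of embryo 1 among them, 0 were called as well, with log2 changes of 5.36 for *Mixl1* (adjusted p = 0.497) and -0.63 for *Eomes* (adjusted p = 0.857), whose direction thus turned, and with 1.1% of all genes higher and 1.36% lower. Without the cells within 1 unit of the class limit 0 were called too, with 1.39% of all genes higher and 2.33% lower. Leaving out each embryo in turn moved the log2 change from 6.81 to 12.2 for *Mixl1*, from 4.44 to 7.52 for *Lhx1*, from 3.69 to 11.9 for *T* and from 1.28 to 2.75 for *Eomes*. Leaving out E6.5 embryo 1 left 2 calls, *Mixl1* and *Mesp1*, among 0.209% of all genes higher and 0.727% lower. Leaving out the E5.5 embryo left 2, *Mixl1* and *Lhx1* (2.24% of all genes higher, 1.96% lower), and leaving out E6.5 embryo 2 gave 1, that of *Eomes* (6.73% higher, 1.69% lower). The filter on low counts passed 13234 genes in the main fit and 11174 without the E5.5 embryo. It passed 12537 without both-marker cells, 12982 without near-limit cells and 13103 without places 10 to 12. A member not called in these fits may thus not have been tested in them. DESeq2 called 5 genes higher, *T* and *Eomes* among them and *Mesp1* not (adjusted p = 0.0629), with 4.45% of all genes higher and 4.75% lower. Without E4.5 embryo 4, which held the early cell, *T* passed in edgeR (adjusted p = 0.0257), where 2.54% of all genes were higher and 1.65% lower. Against E5.5, with 1 embryo, edgeR called 0 of the 9 genes at E6.5 (7 with an unadjusted p under 0.05), with 0.0302% of all genes higher and 0.181% lower. DESeq2 called 5, with 0.778% of all genes higher and 0.582% lower, and edgeR without the cells that held both markers 0, with 0.12% higher and 0.168% lower. In these sums more cells with a gene and more RNA per cell cannot be told apart.

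At E6.5 the genes divided the cells by the position of their numbers. The cell numbers of this stage fill rows of 12, and the place in the row goes with the embryo, places 1 to 5 in embryo 1 and 6 to 12 in embryo 2. The 8 cells at place 9 held 32 to 129 reads and none of the 9 genes, and were left out. All 24 cells at places 10 to 12 held reads of 8 of the 9 genes, every member but *Cdx4*, whereas no other cell of the series held more than 7. This split of embryo 2 was chosen after the values were seen, and has no test. What the places stand for is not given in the labels, so a region of the embryo, an order of picking and a set of libraries cannot be told apart.

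*T* was read in 24 of 24 cells at places 10 to 12, from 20.9 to 250 CPM with a median of 99.1, in 4 of 23 cells at places 6 to 8, at no more than 5.51 CPM, and in 3 of 36 cells of embryo 1, at no more than 29.8 CPM. *Mesp1* ran from 13.5 to 771 CPM with a median of 289 in the same 24 cells and never passed 3.80 CPM elsewhere. Neither gene overlapped between places 10 to 12 and 6 to 8. *Aplnr*, from 12.5 to 298 CPM, was read in 1 of the other 59 cells, and *Snai1*, from 20.9 to 240 CPM, reached at most 26.8 CPM in them, with reads in 27. These 4 genes were thus far higher in the 24 cells, with summed levels 231-fold (*T*), 4107-fold (*Mesp1*), 801-fold (*Aplnr*) and 31.9-fold (*Snai1*) above those of places 6 to 8, the values of *Mesp1* and *Aplnr* resting on few reads in the latter.

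*Mixl1* and *Lhx1* differed less, 105 against 16.7 CPM and 187 against 29.8 CPM, each 6.28-fold, and their cells overlapped. *Evx1*, at 41.1 against 18.1 CPM, and *Eomes*, at 121 against 78.5 CPM, stayed below 4-fold. By that measure 6 of the 8 members with at least 5 CPM in either set were higher and 0 lower at places 10 to 12. Of all 10128 genes with that level 8.79% were higher and 3.91% lower. As the split was chosen after the values of these genes were seen, their count is not to be read against the share. After thinning to 50000 reads *T* and *Mesp1* were still read in 23 of the 24 cells and in 0 of the 23. Per kilobase of exon the level at places 10 to 12 was 277 CPM for *Mesp1*, 59.3 for *Snai1*, 49.3 for *T*, 45.9 for *Lhx1*, 45.7 for *Mixl1*, 37.3 for *Aplnr*, 29 for *Eomes*, 14.3 for *Evx1* and 0.151 for *Cdx4*. Neighbours in this order overlapped from cell to cell, and the order has no test.

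**Figure D4:**
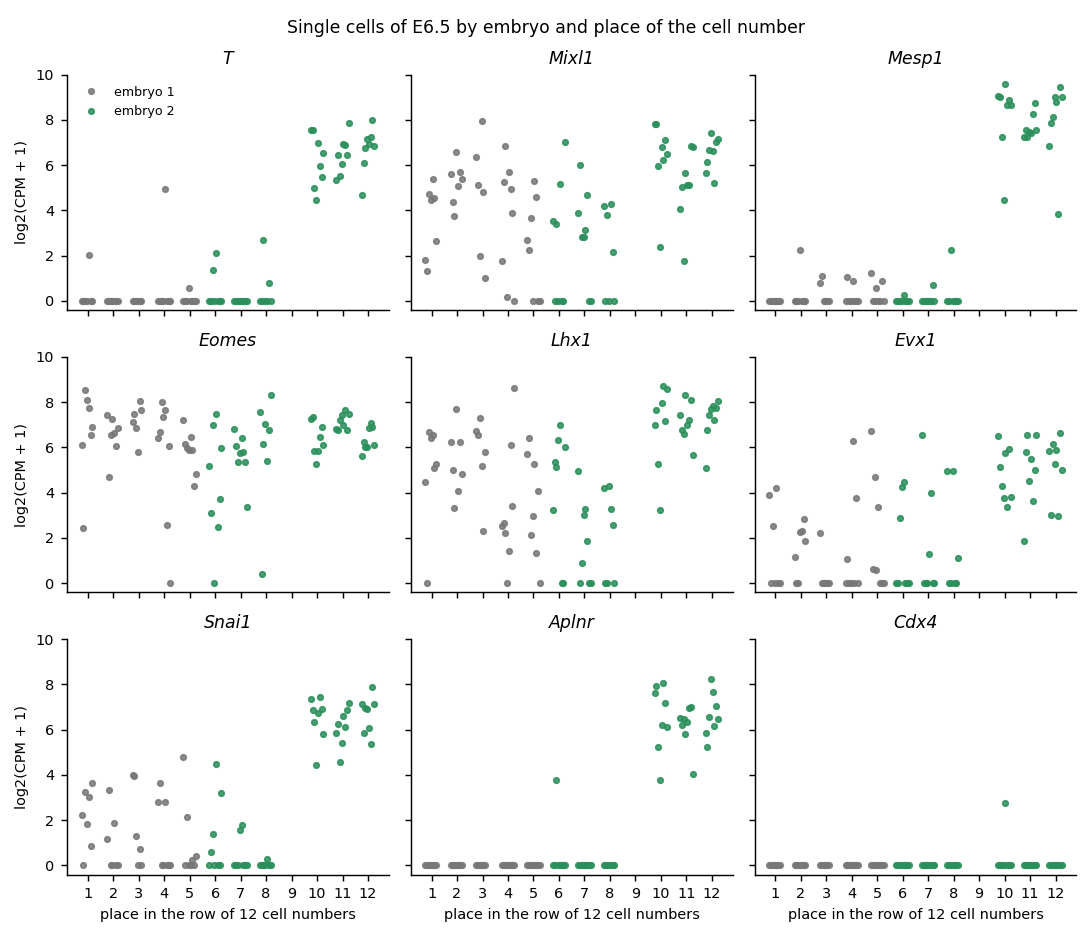
Each point is a kept E6.5 cell, with the place of its number in the row of 12 on the x axis and log2(CPM + 1) on the y axis, embryo 1 in grey and embryo 2 in green. *T*, *Mesp1*, *Snai1* and *Aplnr* were high in the 24 cells at places 10 to 12, whereas *Eomes*, *Lhx1* and *Mixl1* were spread over all places.

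Other genes were read for the same cells. Clusters made without the 9 genes gave 21 mesoderm-like cells, all in embryo 2 at places 10 to 12, named from 13 of 15 other mesoderm markers that were raised (a log2 level at least 1 above the other cells). Besides these, 4 of 8 epiblast and 3 of 12 endoderm markers were raised. With 20 random seeds the cluster held 21 to 24 cells, and always these 21. A cluster of 15 endoderm-like cells (13 in embryo 1 and 2 in embryo 2) had all 12 endoderm and also 7 of 10 trophoblast and 3 of 15 mesoderm markers raised (*Wnt3*, *Cyp26a1* and *Pdgfra*), and the other 47 cells had no name, with 2 of the 10 trophoblast and none of the other markers raised, *Elf5*, read in 36 of them, and *Tfap2c*, read in 33. Of the fixed lists, 13 of 24 other streak and mesoderm genes were at least 4-fold higher at places 10 to 12 and none lower, with a median log2 ratio of 3.07 over the 21 that passed 5 CPM against 0.47 over all genes, among them *Mesp2* (84.1 against 0.0861 CPM) and *Dll3* (84.1 against 4.63 CPM), a ligand of the NOTCH pathway. Of 20 signal genes 7 were higher, with *Lefty2*, a NODAL inhibitor, at 486 against 56.9 CPM and *Wnt3* at 47.7 against 7.38 CPM (but 31.6 CPM in embryo 1 and 55.8 CPM in the endoderm-like cluster), whereas *Nodal* itself was at 20.3 and 18.1 CPM. Both apelin ligands, *Apela* (53.3 against 8.15 CPM) and *Apln* (38.5 against 5.90 CPM), were higher in this contrast, as was their receptor, but *Apln* was also at 21.7 CPM in embryo 1, where *Aplnr* had no read, and at 59.6 CPM in the endoderm-like cluster. Of 12 genes of the epithelial to mesenchymal change 4 were higher, among them *Cdh2* (61.9 against 5.55 CPM) and *Vim* (37 against 5.12 CPM), whereas *Cdh1* was at 93.9 and 114 CPM. All 24 cells held at least 100 CPM of both *Pou5f1* and *Apoa1*, against 16 of 23 at places 6 to 8.

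To see which genes were present before *T*, cells with a read of a gene and none of *T* were set against cells with *T* and none of the gene. In the 59 E6.5 cells outside places 10 to 12, where 7 cells held *T*, *Eomes* was read without *T* in 50 cells and *T* without *Eomes* in 0. The numbers were 42 and 1 for *Lhx1*, 40 and 1 for *Mixl1*, 23 and 3 for *Snai1* and 21 and 2 for *Evx1*. *Mesp1* was read without *T* in 7 cells and *T* without *Mesp1* in 3. *Aplnr* was never read without *T*, in 0 cells against 6. Of the 52 cells without *T*, 96.2% held *Eomes*, 80.8% *Lhx1*, 76.9% *Mixl1*, 44.2% *Snai1*, 40.4% *Evx1* and 13.5% *Mesp1*. These 59 cells were left after taking out places 10 to 12, where every cell held *T*, so *T* was rare in them (7 cells) by that choice. The difference between both numbers of a pair equals the difference between the cells with a read of the gene and those with a read of *T*, so it follows how readily each gene was read and is not an order in time. In the non-endoderm cells alone, 5 of the 8 other genes in embryo 1 (5 cells) and 3 of 8 in embryo 2 (18 cells) had more cells without *T* than *T* had without them.

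In the 7 cells with *T* outside places 10 to 12 *Eomes*, *Lhx1* and *Mixl1* were common, as they were in the cells without it. The cell with the most *T*, in embryo 1, held 29.8 CPM of *T* (35 reads), 200 of *Eomes*, 75.7 of *Evx1*, 50.2 of *Mixl1*, 5.96 of *Snai1*, 1.70 of *Lhx1* and 0.851 of *Mesp1*. The others held 1 to 18 reads of *T*. All 7 had *Eomes*, at 58.1 to 210 CPM, 6 had *Mixl1* and 6 had *Lhx1*, and 4 had *Mesp1*, at no more than 3.68 CPM.

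**Figure D5:**
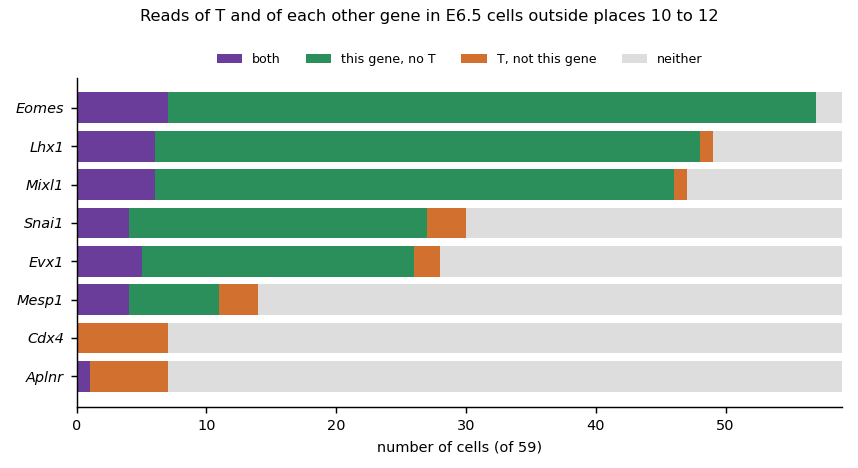
Number of E6.5 cells outside places 10 to 12 of embryo 2 (59 cells) that held a read of *T* and of the gene named at the left, of this gene only, of *T* only or of neither. *Eomes*, *Lhx1* and *Mixl1* were read in 40 or more cells without *T*, whereas *Aplnr* and *Cdx4* were read in none.

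At E4.5 and E5.5 *T* was read in 1 of 134 cells, so any gene read there was found without it. Counts within these stages therefore give no order from cell to cell. By stage, *Eomes* was already read there in non-endoderm cells, in 62.5% of 24 at E4.5 and 29.4% of 51 at E5.5. *Mesp1* was read in 0 of the 133 cells without *T*. Whether such early cells lead to those with *T* was not tested. Of the 133 cells without *T*, 59 were endoderm-like. The cells with a read were endoderm-like in 26 of 29 for *Lhx1*, 9 of 10 for *Mixl1*, 21 of 27 for *Snai1*, 47 of 76 for *Eomes* and 3 of 3 for *Aplnr*, but in 2 of 7 for *Evx1* and 0 of 5 for *Cdx4*.

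Which genes were shared with endoderm was also read from E6.5. In the cluster of 15 endoderm-like cells *Eomes*, *Lhx1* and *Mixl1* were read in all 15, with medians of 84, 33.4 and 25.3 CPM. *Evx1* was read in 10 and *Snai1* in 9, with medians of 2.65 and 1.99 CPM, *Mesp1* in 4, and *T* and *Aplnr* in the same cell only, which stood at place 10 of embryo 2. In the 47 unnamed cells *Eomes*, *Lhx1* and *Mixl1* were read in 95.7%, 76.6% and 72.3%. After thinning to 50000 reads their shares were 86.7%, 53.3% and 60% in the endoderm-like and 74.5%, 48.9% and 36.2% in the unnamed cluster. The mesoderm-like cells held *Eomes*, *Lhx1* and *Mixl1* at medians of 115, 149 and 88.4 CPM, and overlapped the endoderm-like cells in each. In embryo 1 *Lhx1* went up with the score of endoderm over epiblast markers (Pearson r = 0.40 over 36 cells) and at places 6 to 8 of embryo 2 more so (r = 0.73 over 23 cells), but at places 10 to 12 it went down with it (r = -0.64 over 24 cells). There all 8 genes other than *Cdx4* had a negative r, from -0.64 to -0.21, *T* (r = -0.62), *Mixl1* and *Snai1* (both -0.59) among them, and at places 6 to 8 *Snai1* (r = 0.60) and *Evx1* (r = 0.42) also went up with the score, though in embryo 1 they had r of -0.19 and -0.21. *Eomes* had r of -0.24, -0.01 and -0.38 in these sets. These are descriptions over cells of the same embryo that share libraries and depth. Of the 24 cells at places 10 to 12, 16 were in the endoderm-like range of the score and 8 in the other. Between the 2 ranges of the score at E6.5 edgeR called 0 of the 9 genes, and DESeq2 0, and 0 had an unadjusted p under 0.05, with 0.441% of all genes higher and 0.0334% lower in the endoderm-like range. Without cells within 1 unit of the limit *Lhx1* was called higher, where 1.99% of all genes were higher and 0.0979% lower. Without the cells that held both *Pou5f1* and *Apoa1*, which left embryo 2 alone with 3 and 4 cells, *Lhx1* and *Eomes* were called higher, where 6.11% of all genes were higher and 5.95% lower. No member had a class difference at E6.5 that differed from that at E4.5 by the test of the difference itself (0 of 9 genes called by edgeR and by DESeq2, 1 with an unadjusted p under 0.05, against 1.39% of all genes higher and 0.855% lower). Without the cells that held both markers 2 were called, *Lhx1* and *Eomes*, against 5.67% of all genes higher and 5.72% lower.

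The genes whose levels were most alike over the 83 E6.5 cells were found among 12405 genes. *T* was closest to *Mesp1* (r = 0.95), *Aplnr* (r = 0.95) and *Fgf3* (r = 0.90), *Aplnr* to *Mesp1*, *T* and *Mesp2* (r = 0.97, 0.95 and 0.92), *Snai1* to *Mesp1*, *T* and *Aplnr* (r = 0.89, 0.88 and 0.87), and *Evx1* to *T*, *Snai1* and *Mesp1* (r = 0.70, 0.68 and 0.67). The 3 genes closest to *Mixl1* were *Cdc42ep4*, *Rhbdd2* and *Ypel3* (r = 0.67, 0.66 and 0.65) and those closest to *Eomes* were *Itgb1*, *Paip1* and *Cdk1* (r = 0.75, 0.73 and 0.72), none of them a member. *Lhx1* was closest to *Cyp26a1*, a retinoic acid hydroxylase (r = 0.71), then to *Snai1* (r = 0.64) and *Adam19* (r = 0.63). The r between members differed between parts of the stage. The median r over the 21 pairs of members other than *Cdx4* and *Aplnr*, which had no read in embryo 1, was 0.55 over all cells. It was higher in embryo 2, at 0.71, and lower within places 10 to 12, at 0.42, and in embryo 1, at 0.18. The r of *T* with *Mesp1* was 0.96 in embryo 2, 0.71 at places 6 to 8, 0.44 within places 10 to 12 and 0.18 in embryo 1. Some other pairs kept theirs in embryo 1, *Lhx1* with *Cyp26a1* at 0.74, *Mixl1* with *Rhbdd2* at 0.68 and *Eomes* with *Itgb1*, *Paip1* and *Cdk1* at 0.65, 0.70 and 0.79, though within places 10 to 12 these were 0.47, 0.02, 0.16, 0.38 and 0.12. In embryo 1 *Mixl1* with *Cdc42ep4* fell to 0.43 and with *Ypel3* to 0.56, and *Lhx1* with *Adam19* fell to 0.40.

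The lists of related genes were read from the same tests. At E6.5 against E4.5 in non-endoderm cells 2 of 20 signal genes were higher, *Fgf8* (44.3 against 0.150 CPM) and *Cer1*, an inhibitor of NODAL, BMP and WNT (19.2 against 0 CPM), and *Fgf4*, also one of the epiblast markers, was lower (7.55 against 120 CPM). Of the 24 other streak and mesoderm genes *Mesp2* and *Frzb* were higher, and of 12 genes of the epithelial to mesenchymal change *Cdh2*, *Cldn6* and *Itgb1*, where 3.2% of all genes were higher and 1.82% lower. Neither apelin ligand passed, and no gene of the 4 lists was called between E5.5 and E4.5 or between E6.5 and E5.5. Without the cells that held both *Pou5f1* and *Apoa1* none of these genes was called higher at E6.5 against E4.5, *Fgf4* was still lower and *Tdgf1* was lower too, with fewer genes tested (16 of the 20 signal genes and 11 of the 24 streak and mesoderm genes). Without places 10 to 12 *Fgf8* and *Cldn6* were still higher, *Fgf4* still lower and *Fn1* lower too. At E4.5, 6 of the 24 streak and mesoderm genes were higher in endoderm-like cells, *Foxa2*, *Pdgfra*, *Cyp26a1*, *Gata4*, *Gata6* and *Amot*, and 1 was lower, *Phlda2*, and the same names were called at E5.5, where 7.18% and 1.97% of all genes were higher and 4.74% and 5.62% lower at E4.5 and E5.5. *Cyp26a1*, the gene most alike to *Lhx1*, was at 49.6 against 1.10 CPM at E4.5 and at 947 against 0.0252 CPM at E5.5. *Gata4* and *Gata6* are on the endoderm list that made the classes, so their difference was built in. Of the 20 signal genes 4 were higher in endoderm-like cells at each of both stages. Among them *Dkk1*, a WNT inhibitor, was higher at E4.5 (186 against 19 CPM) and E5.5 (203 against 0.492 CPM), and at E5.5 also *Lefty1* (390 against 3.96 CPM) and *Cer1* (30.7 against 0 CPM), genes known from the anterior visceral endoderm. *Fgf8* was higher there at both stages (6.95 against 0.150 CPM and 458 against 11.4 CPM), and *Smad2*, which carries the NODAL signal (53.5 against 15.8 CPM), and *Furin*, a protease that matures it (24.8 against 3.81 CPM), at E4.5. Of the same 20 genes 5 were lower in endoderm-like cells at E4.5 and 4 at E5.5, *Tdgf1*, *Bmp4*, *Fgf4* and *Lef1* at both and *Otx2* at E4.5. *Tdgf1*, the co-receptor of NODAL, fell from 1015 to 6.52 CPM at E4.5, and it and *Fgf4* are on the epiblast list that made the classes. *Apela* was at 8.47 CPM in non-endoderm cells of E5.5 and at 0 in the endoderm-like cells, and was called lower. Of the 12 genes of the epithelial to mesenchymal change *Cldn6* was higher in endoderm-like cells at E4.5 (246 against 71.9 CPM) and *Epcam* (63.6 against 169 CPM) and *Fn1* (21.8 against 216 CPM) lower, and at E5.5 *Vim* (0 against 14 CPM) and *Fn1* (0.128 against 7.03 CPM) were lower.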

How the data were processed

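RNA and bisulfite-treated DNA had been sequenced from the same cells, and only the RNA is analysed here. The authors deposited counts of reads per gene, not normalized, for 264 cells. The submitters' processing notes, which cover the RNA and the bisulfite data together and give no role for a tool, name Trim Galore 0.4.5 and 0.4.2, cutadapt 1.8.1, Bismark 0.19.0, HISAT2 2.1.0, featureCounts, R 3.4.3 and build GRCm38. The libraries were made with Smart-seq2, which does not mark strand. Stage and embryo were taken from the labels. For E4.5 the labels list 5 embryos and the paper's methods 4, so the number of E4.5 replicates in each test rests on the labels. No plate or batch name in the labels is shared between stages, so batch and stage cannot be told apart. Symbols were matched for 21907 of 22084 identifiers.

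Cells with at least 50000 reads and 2000 genes were kept. Levels were log2(CPM + 1), with intervals at 95% and a floor of 3 reads. Counts were summed per embryo, or per embryo and class, and tested with edgeR 4.0.16 in R 4.3.3 (TMM, filterByExpr, quasi-likelihood, Benjamini-Hochberg over all genes, threshold 0.05), on all 8 embryos in each fit, with the embryo as a block between classes. The scripts were tested on simulated data. Embryos are the replicates, and nothing says that they came from separate litters. Leiden clusters were made with scanpy 1.11.5 (2000 variable genes, 20 components, 15 neighbours, resolution 0.5). Alternatives were DESeq2 1.42.0, RLE factors, other filters, clusters in place of the marker classes, each embryo left out, and, chosen after seeing the data, cells with both *Pou5f1* and *Apoa1* or at places 10 to 12 left out. The embryo numbers that E4.5 and E6.5 share do not pair the embryos, which are different animals. The text names the 9 genes, genes of 4 fixed lists that passed a test or were read in at least 50% of a class, and the 3 genes most alike to each member read in at least 10 E6.5 cells. The members and lists were chosen with earlier results of these data known. The bisulfite data are not analysed here.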

Additional observations from a re-analysis of the deposited data

Results flagged for a closer look

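Over the 5 E4.5 embryos, 9 of the 19 sets of embryo levels that could be examined had an embryo far from the rest, and in 4 of the 9 every other embryo was at 0. Chance gives about 1 in 20 for separate sets of continuous values, but these sets share cells and lie near 0, so their number is not to be read against that rate. Embryo 2 was highest for *Evx1*, at 3.38 on the log2(CPM + 1) scale in its non-endoderm cells (next 0.63, reads in 3 of 4 cells) and 1.69 over all its kept cells. It was also highest for *Aplnr*, at 0.81 in endoderm-like and 0.40 in all kept cells, and for *Mixl1* in non-endoderm cells, at 0.40, each from 1 cell. Embryo 4 was highest for *T*, at 0.60 in non-endoderm and 0.15 in all kept cells, from the same cell. Embryo 1 was highest in endoderm-like cells for *Mixl1*, at 0.63 from 2 cells, and for *Evx1*, at 0.27 from 1 cell. Embryos 1 and 2 have the prefix P1 in the labels and embryos 3 to 5 the prefix P2. The labels do not say what the prefix means, and its part in these levels was not tested.

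The 47 cells left out for low depth or few genes held 168 reads of *Eomes*, all at E5.5, and 79 reads of *Lhx1*, all in the 1 cell left out of E6.5 embryo 1. They held no read of the other 7 genes.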

How the results depend on the processing

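Without the cells holding both *Pou5f1* and *Apoa1*, without those at places 10 to 12, without cells near the class limit and with a replicate block for the number of the embryo, each of these 4 settings called 0 genes higher at E6.5 against E4.5 in place of 4. Fewer genes were tested in each of the 4 than in the main fit, so a member not called may not have been tested. The numbers do not pair the embryos (correlation of deviations -0.02 and -0.01). Leaving out an embryo gave 1 to 4 calls. DESeq2 called 5 genes higher at E6.5 against E5.5 and the fit without a low-count filter 1, in place of 0. At E5.5 against E4.5, in place of 0, 1 gene was called without that filter (*Cdx4*), where 0.815% of all genes were higher and 0.642% lower. With Leiden classes 1 was called (*Lhx1*), where 0.241% of all genes were higher and 0.166% lower. Their non-endoderm class took all 59 E5.5 cells, the endoderm-like ones included. Over all kept cells, endoderm-like cells included, 2 were called, where 0.918% of all genes were higher and 0.853% lower. Between classes at E4.5, Leiden classes, the fits without near-limit cells, without both-marker cells or without places 10 to 12, and no replicate block each left 1 call of 2, *Lhx1*, as did the lowest fit without an embryo (1 to 2). At E5.5, 1 of 3 remained with no replicate block, leaving out an embryo gave 1 to 3, and DESeq2 called 1 gene lower. At E6.5, 1 gene was called without near-limit cells and 2 without both-marker cells, which also gave 2 for the difference of the class effects, in place of 0. The cause of these changes was not tested. The log2 difference of *Eomes* reversed to -0.63 at E6.5 against E4.5 without both-marker cells, and between classes at E4.5 to -0.0132 and -0.0560 without embryos 1 and 2, in a range up to 0.785 over all embryos left out in turn. The other planned settings kept the counts of called members within 1.5 times.

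The number of members seen more often without *T* than *T* without them was 5 of 8 in embryo 1 and 3 at a limit of 10 CPM. In embryo 2 it was 3, and 1 after thinning, 5 with Leiden classes, 5 over all kept cells and 5 over those outside places 10 to 12. A pseudocount of 10 moved 103 of 144 levels by more than their spread, the stricter cell filter none. Over the whole table, E6.5 had 424 genes higher and 241 lower than E4.5, and 27 to 842 and 94 to 227 with an embryo left out. With the replicate block they were 184 and 218. Across the other planned settings the numbers were 140 to 853 and 211 to 629. At E5.5 against E4.5 they were 15 and 23, and 6 to 141 and 14 to 341, at E6.5 against E5.5 4 and 24, and 2 to 103 and 21 to 77. Between classes at E4.5 they were 1075 and 710, and 729 to 1585 and 618 to 1163, at E5.5 295 and 841, and 127 to 513 and 465 to 1676, and at E6.5 66 and 5, and 0 to 284 and 0 to 14. Without both-marker cells, which was added later, the E6.5 classes gave 842 and 819, and the difference of the class effects 781 and 788 in place of 208 and 128. With an embryo left out the numbers were 3 to 16 and 5 to 43 at E5.5 against E4.5, 1 to 8 and 14 to 24 at E6.5 against E5.5, and between classes 756 to 914 and 519 to 670 at E4.5, 209 to 324 and 507 to 982 at E5.5, 2 to 67 and 0 to 49 at E6.5 (39 and 49 without E6.5 embryo 2), and 34 to 225 and 5 to 139 for the difference of the class effects. At E5.5 Leiden clusters did not separate endoderm, so that class comparison was not run with them. With 1 or 2 embryos at the later stages, a p that missed the threshold does not show equal levels.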
